A study of Mus musculus with 2 samples.

Results

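The genes described here are 35 genes of glycolysis and of the response to low oxygen, taken by symbol from the 27998 genes of the count tables. They comprise glucose and lactate transporters, glycolytic enzymes, enzymes that decide the fate of pyruvate, and targets and regulators of the hypoxia-inducible factor HIF. The rule names symbols and uses no threshold on measured values, and each gene had at least 63 UMIs in the kept control cells (a UMI, or unique molecular identifier, stands for 1 captured transcript). The cells came from the pancreas of 1 control embryo and 1 Dpy30∆P knockout embryo, both of the C57BL/6 strain at embryonic day 18.5, dissociated with trypsin and captured by 10x Chromium 3′ v2 chemistry, which tags transcripts near their 3′ end. Dpy30 encodes a subunit shared by complexes that methylate histone H3 at active genes. The alleles, the cells in which the deletion was driven and the genotype of the control are not stated in the labels.

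After filtering, 2607 control and 3228 knockout cells remained, with a median of 6828 and 6628.5 UMIs per cell, and 12 barcodes occurred in both libraries. The 35 genes held 112429 UMIs (0.52% of the total) in the control and 129383 UMIs (0.46%) in the knockout library. With 1 library per group no difference has a replicate check and no test was run. The 95% intervals are exact Poisson for levels and exact conditional binomial for ratios, and they hold counting error alone. The libraries differed in sex (Xist 1 and 46352 UMIs, Ddx3y 1569 and 0), so sex, genotype and library cannot be told apart. Dpy30 had 2446 and 4037 UMIs. Which part of the gene was deleted is not stated, so these 3′ tags check nothing, and control and knockout mean the libraries with those labels. Cells were clustered without the 35 genes, and clusters were named by markers. Acinar-like cells numbered 108 in the control and 754 in the knockout library, ductal-like cells 501 and 389, endocrine-like cells 371 and 233, mesenchymal-like cells 961 and 1247, and endothelial-like cells 179 and 119. There were also 215 and 186 mesothelial-like, 86 and 108 macrophage-like, and 90 and 42 pericyte or smooth muscle-like cells.

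Levels are given as CPM, the UMIs of a gene per 1000000 UMIs of all cells of a class in a library. Because tags are not scaled to gene length and differ in capture, CPM compares classes or libraries for 1 gene, and not genes with each other. Paired values are always control first and knockout second, and parentheses hold the ratio of knockout to control and its interval. Gapdh, Ldha, Pgk1, Tpi1, Aldoa, Eno1, Pgam1, Pkm and Mif have closely similar processed copies elsewhere in the genome, so their counts are uncertain.

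Glycolysis splits glucose to pyruvate in the cytosol, and lactate dehydrogenase turns pyruvate to lactate when it does not enter mitochondria. In low oxygen the prolyl hydroxylases of the Egln family no longer mark HIF-1α for destruction, and HIF binds a short core sequence near its targets, which include most glycolytic genes. In the developing pancreas, oxygen and HIF have been tied to the balance between progenitor growth and endocrine differentiation, and mature beta cells keep lactate dehydrogenase A and the lactate transporter Slc16a1 very low.

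The 250 bases before the annotated start were read for 32 of the 35 genes in a RefSeq promoter table of build GRCm38.p6. Where a gene had several starts, the most upstream one was used. Slc2a3, Bnip3l and Ndrg1 are not in that table. Searched on both strands were ACGTG and GCGTG, the 2 forms of the HIF core, and CACGTG, which contains ACGTG on each strand. ACGTG stood in 16 of the 32 promoters and in 16.5% of the 27025 promoters in the table. GCGTG stood in 17 of 32 (53.1%) against 28.3%, and CACGTG in 5 of 32 (15.6%) against 6.04%. Each motif contains the bases CG, and the promoters compared were not matched for base content or for expression of the gene. Of the 8 genes in the table that were at least 1.5-fold lower in ductal-like knockout cells (described further on), 6 held ACGTG, as did 10 of the other 24 (41.7%). GCGTG stood in 5 of the 8 and 12 of the 24, and CACGTG in 1 of the 8 (12.5%) and 4 of the 24 (16.7%), so the 3 motifs did not all lean the same way. The 24 include Hk1, Eno2 and Adm, which had fewer than 50 UMIs in ductal-like cells and so could not be called. None of them held ACGTG, so they lower its share among the 24. A match describes the letters in this window and is not a binding site. Capitals mark ACGTG or its reverse complement in the sequences that follow, 5′ to 3′ on the strand of the gene. Shown are the promoters of 3 of the 6 lower genes with ACGTG. They are those of the glucose transporter Slc2a1 (chr4:119108495-119108744, plus strand), of hexokinase 2, Hk2 (chr6:82774455-82774704, minus strand), and of the mitochondrial protein Bnip3 (chr7:138909507-138909756, minus strand).
Slc2a1: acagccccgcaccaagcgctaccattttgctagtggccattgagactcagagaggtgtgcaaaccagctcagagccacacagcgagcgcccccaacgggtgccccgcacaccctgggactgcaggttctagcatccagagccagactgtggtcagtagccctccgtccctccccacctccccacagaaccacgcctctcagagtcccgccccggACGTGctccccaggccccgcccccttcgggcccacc
Hk2: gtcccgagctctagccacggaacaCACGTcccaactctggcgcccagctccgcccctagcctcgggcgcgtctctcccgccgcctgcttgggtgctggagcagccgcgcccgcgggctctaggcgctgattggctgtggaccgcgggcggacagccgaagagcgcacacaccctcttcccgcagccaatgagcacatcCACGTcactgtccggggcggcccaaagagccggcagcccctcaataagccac
Bnip3: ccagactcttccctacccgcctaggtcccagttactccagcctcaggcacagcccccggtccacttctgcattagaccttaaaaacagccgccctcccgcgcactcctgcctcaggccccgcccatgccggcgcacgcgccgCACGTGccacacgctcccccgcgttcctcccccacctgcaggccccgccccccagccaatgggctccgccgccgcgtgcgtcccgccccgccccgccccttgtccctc
The ACGTG core nearest the start lies 36 bases before it in Slc2a1, 52 bases before it in Hk2 and 107 bases before it in Bnip3. In Bnip3 this ACGTG is part of the palindrome CACGTG.

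Each class had its own combination of isoforms and hypoxia genes, and 29 of the 35 genes were highest in the same class in both libraries. Slc2a1, the main basal glucose importer, was highest in ductal-like cells, at 81.1 and 42.6 CPM, and low in endocrine-like cells, at 11.7 and 5.23 CPM. Slc16a1, which carries lactate and pyruvate, was highest in mesothelial-like cells, with 161 and 93 UMIs, the latter 64.9 CPM, while the next class by mean, ductal-like cells, had 11.1 and 8.18 CPM. Slc16a3, the lactate exporter of glycolytic cells, reached 45.4 and 38.4 CPM in mesothelial-like cells and 42.8 and 34.2 CPM in macrophage-like cells, which do not differ beyond counting error.

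The hexokinases, which trap glucose in the cell, divided the classes. Hk1 was highest in endothelial-like cells, at 38.8 and 28.3 CPM, and had 4 and 0 UMIs in ductal-like cells. Hk2 was highest in macrophage-like cells, at 197 and 91.8 CPM, followed by mesenchymal-like cells at 109.7 and 76.3 CPM, and had 4 and 1 UMIs in endothelial-like cells. Hk1 was thus barely counted in ductal-like cells, and Hk2 barely in endothelial-like cells. The liver-type phosphofructokinase Pfkl was highest in ductal-like cells, at 151 and 105 CPM. The aldolase isoform Aldoc stood at 171 and 128 CPM in ductal-like cells, and the next class by mean, endocrine-like cells, had 37.2 and 33.8 CPM. Among the later enzymes, the enolase Eno1 was highest in ductal-like cells, at 712 and 546 CPM. Gapdh, at 1713 and 1616 CPM, and the pyruvate kinase Pkm, at 781 and 728 CPM, were highest by mean in macrophage-like cells.

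Ldha, which makes lactate, was far lower in endocrine-like cells than elsewhere. Macrophage-like cells had 849 and 659.9 CPM and ductal-like cells 811 and 543 CPM, against 47.5 and 71.3 CPM in endocrine-like cells. Ldhb, the heart-type subunit, was highest in mesothelial-like cells, at 112 and 142 CPM. Pdk1, the kinase that closes pyruvate dehydrogenase, was at 55.9 and 49.8 CPM in acinar-like and at 52.2 and 48.1 CPM in mesothelial-like cells, with overlapping intervals. Pfkfb3, which makes an activator of phosphofructokinase, was highest in acinar-like cells, at 25.95 and 18.5 CPM.

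Endothelial-like cells stood highest by mean for the oxygen-sensing genes Hif1a, at 144 and 114 CPM, and Egln1, at 37.6 and 41 CPM, and for the HIF target Ankrd37, at 129 and 169 CPM. Egln3 was highest by mean in mesothelial-like cells, at 51.6 and 48.1 CPM, and low in endocrine-like cells, at 2.98 and 4.28 CPM. Ndrg1, a stress and hypoxia gene, was also highest in mesothelial-like cells, at 217 and 192 CPM. The collagen prolyl hydroxylases, which prepare collagen for secretion, were highest in matrix-making classes. P4ha1 stood at 107 and 119 CPM in mesothelial-like cells, and P4ha2 at 113 and 117 CPM in mesenchymal-like cells. Adm, a peptide hormone and classical hypoxia target, was sparse everywhere, with its highest mean in mesenchymal-like cells (12.5 and 4.13 CPM). Mif, a cytokine-like protein, was at 1758 and 1177 CPM in acinar-like and at 1285 and 1232 CPM in ductal-like cells. Endocrine-like cells were the highest class for 0 of the 35 genes. CPM is a share of all UMIs of a class, so abundant products of a class lower the CPM of its other genes. In endocrine-like cells 18 beta-cell markers summed to 232000 and 98900 CPM, and in acinar-like cells 25 acinar markers to 193000 and 111000 CPM. Their part in the order of the classes was not tested.

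**Figure D1:**
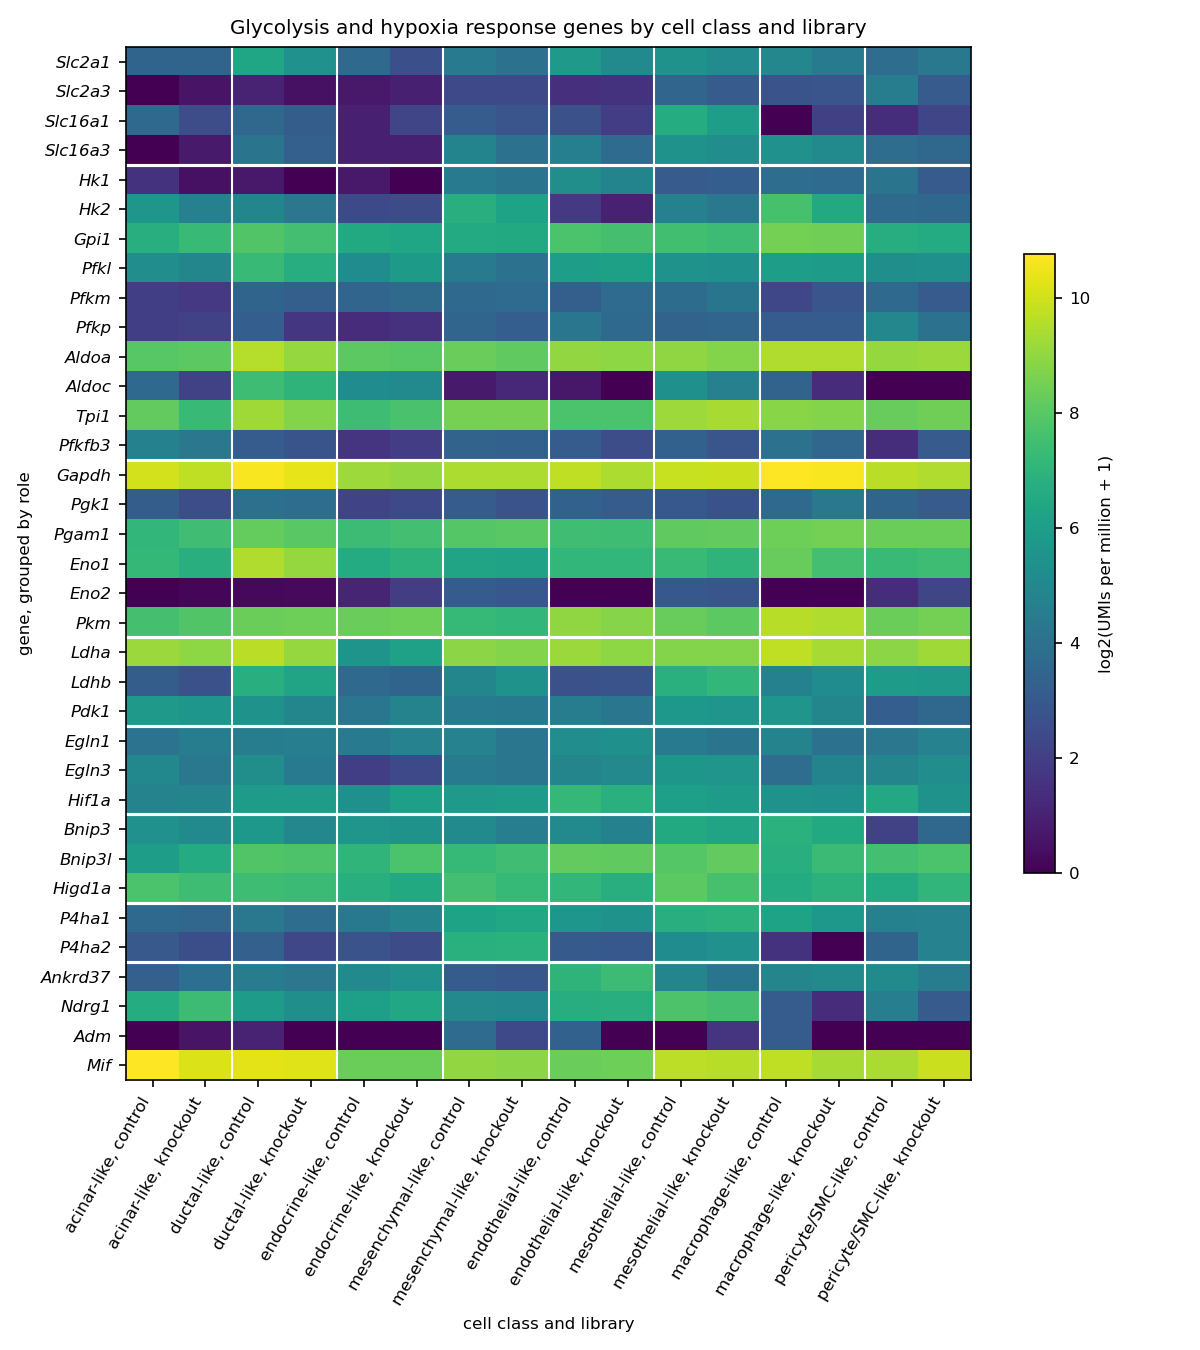
Level of each of the 35 genes (rows, grouped by role) in the control and knockout library of 8 cell classes (columns), as log2 of CPM plus 1, with the scale in the colour bar. Ldha is low in both endocrine-like columns, Hk2 is bright in macrophage-like and mesenchymal-like cells, and Slc16a1 is highest in mesothelial-like cells.

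The comparison of the libraries asks which of these genes differed between knockout and control in each class. A gene was counted in a class where it had at least 50 UMIs over both libraries, and called where its CPM differed by at least 1.5-fold. In ductal-like cells 9 of 31 genes were called lower and 0 higher, where 3.81% of all 9947 genes with as many UMIs were lower and 3.69% higher. The ratio was below 1 for 28 of the 31, and the interval lay wholly below 1 for 21 and wholly above 1 for 0. The median log2 ratio was −0.44, and 0.03 over all genes. In acinar-like cells 6 of 27 were lower (6.65% of all genes) and 3 higher (23.6%), with a median of −0.27 and of 0.19 over all genes. In endocrine-like cells 5 of 23 were higher (17.5% of all genes) and 1 lower (4.39%), and the median was 0.26, close to the 0.24 of all genes. In mesenchymal-like cells 2 of 34 were lower (4.58%) and 0 higher (2.43%), with a median of −0.12 and of −0.01 over all genes. Endothelial-like cells had 2 of 23 lower (5.89%) and 0 higher (4.09%), with a median of −0.14 and of −0.02 over all genes. The shares called in endocrine-like, mesenchymal-like and endothelial-like cells were near those of all genes. With ratios centred on the median of all genes, acinar-like cells had 0 higher (16.4% of all genes) and 10 lower (12.2%), and endocrine-like cells 0 higher (6.63%) and 1 lower (9.13%). Under the same centring mesenchymal-like cells had 1 higher (2.6%) and 2 lower (4.37%), and ductal-like cells 0 higher (3.29%) and 10 lower (4.3%). Whether the classes differed from each other was not tested.

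**Figure D2:**
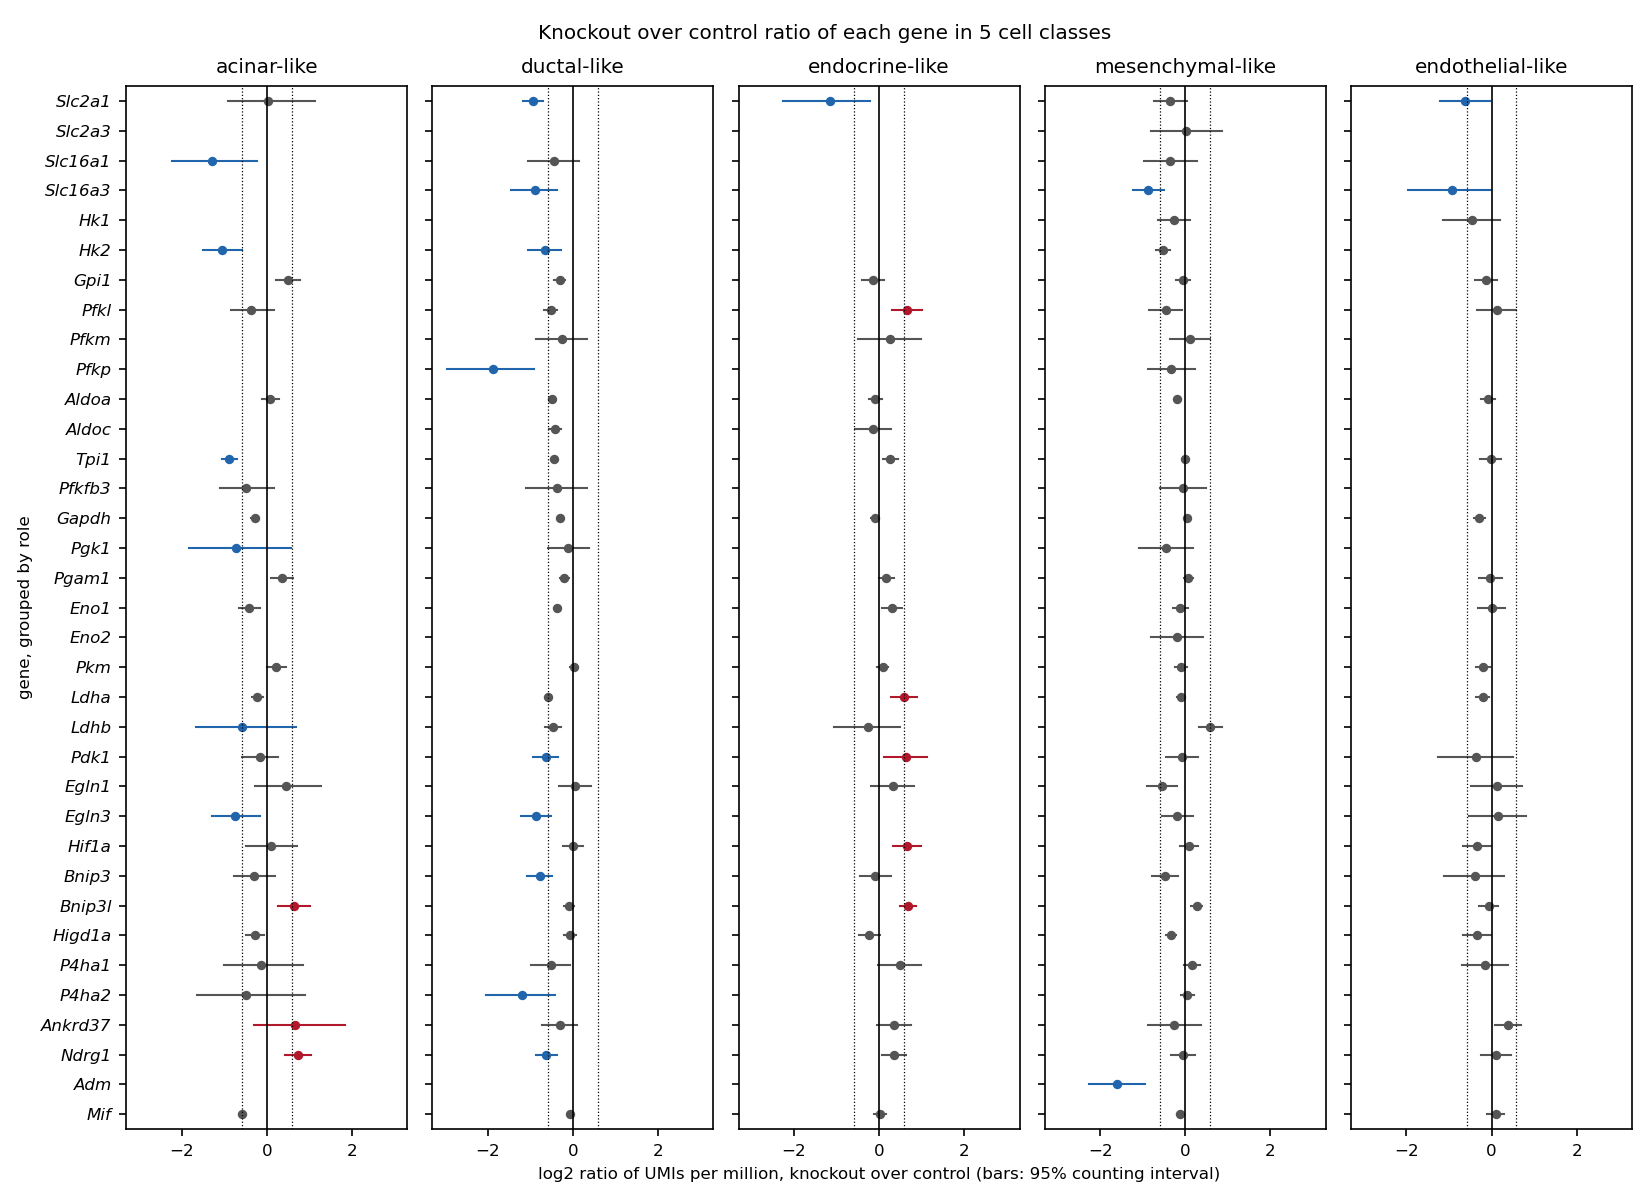
Log2 ratio of CPM, knockout over control, for each gene with at least 50 UMIs in 5 classes; points are ratios, bars 95% counting intervals, dotted lines 1.5-fold, blue points at least 1.5-fold lower and red points at least 1.5-fold higher. In ductal-like cells 28 of 31 points lie below 0, and in endocrine-like cells 5 lie past the upper dotted line.

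In ductal-like cells the lower genes ran from glucose entry to lactate export. Slc2a1 was at 81.1 and 42.6 CPM (0.525, 0.444 to 0.619). With every cell thinned to 2000 UMIs its ratio was 0.715 (0.473 to 1.07), which no longer passed 1.5-fold. Slc16a3 was at 16.8 and 9.003 CPM (0.537, 0.367 to 0.773), and Slc16a1 at 11.1 and 8.18 CPM (0.736, 0.483 to 1.11), an interval that spans 1. All 3 transporters with enough UMIs were thus below 1, and Slc2a3 had only 6 and 2 UMIs.

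Of the 10 upper glycolytic genes 9 could be counted, and all 9 were below 1. Hk2 was at 29.4 and 18.6 CPM (0.632, 0.485 to 0.82). Pfkp, the platelet-type phosphofructokinase, was at 8.22 and 2.25 CPM (0.274, 0.128 to 0.535), from 48 and 11 UMIs. Hk2 and Pfkp were the called genes of this stretch, and the other 7 were lower by less than 1.5-fold. Pfkl was at 151 and 105 CPM (0.695, 0.622 to 0.776), and the aldolase Aldoa at 773 and 546 CPM (0.706, 0.673 to 0.741). Tpi1, the triose phosphate isomerase, was at 602 and 443 CPM (0.737, 0.698 to 0.777), and Gpi1, the step after hexokinase, at 232 and 186 CPM (0.805, 0.739 to 0.876).

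No gene of the lower steps was called. Gapdh was at 1642 and 1326 CPM (0.808, 0.782 to 0.834), Eno1 at 712 and 546 CPM (0.766, 0.729 to 0.804) and Pgam1, the phosphoglycerate mutase, at 301 and 262 CPM (0.869, 0.808 to 0.934). Pkm, the last step, was at 331 and 337 CPM (1.02, 0.954 to 1.09), and its interval spans 1. Of the enzymes that handle pyruvate, Ldha was at 811 and 543 CPM (0.669, 0.638 to 0.702), just short of 1.5-fold and not called. Pdk1 was at 45.9 and 29.5 CPM (0.642, 0.521 to 0.789) and was called. Ldhb was at 109 and 78.4 CPM (0.7198, 0.633 to 0.818).

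The hypoxia genes split. Egln3, a hydroxylase that HIF itself induces, was at 39.03 and 21.5 CPM (0.551, 0.433 to 0.697). Bnip3, which marks mitochondria for removal, was at 53.1 and 30.9 CPM (0.582, 0.476 to 0.7095). Ndrg1 was at 61.96 and 40.3 CPM (0.651, 0.544 to 0.776) and P4ha2 at 8.901 and 3.89 CPM (0.437, 0.244 to 0.751), so all 4 were called lower. With each cell weighted alike Bnip3 had 0.693, short of 1.5-fold. Hif1a, in contrast, was at 59.9 and 59.95 CPM (1.001, 0.854 to 1.17), and Egln1, the main HIF hydroxylase, at 22.3 and 23.1 CPM (1.04, 0.8003 to 1.35). Bnip3l, a relative of Bnip3, was at 232 and 216 CPM (0.932, 0.859 to 1.01), and Higd1a, a small mitochondrial protein, at 170.0 and 161 CPM (0.9498, 0.864 to 1.04). Mif was at 1285 and 1232 CPM (0.958, 0.926 to 0.991). The transcripts of Hif1a, Egln1, Bnip3l and Higd1a thus had intervals that span 1, and mRNA does not report the amount of HIF-1α protein.

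The ductal-like class held 3 clusters with unlike shares of the libraries. Cluster 2 held 360 control and 155 knockout cells, cluster 9, led by cell cycle genes, 117 and 110, and cluster 13, among whose leading genes are Krt17 and Wfdc2, held 24 and 124. In cluster 2, 7 of 28 counted genes were called lower (4.96% of all genes) and 0 higher (2.85%). In cluster 9, 7 of 25 were lower (4.77%) and 0 higher (4.71%), and in cluster 13, 6 of 20 were lower (9.05%) and 0 higher (18.9%). The medians were −0.26, −0.39 and −0.30, beside 0.01, 0.02 and 0.10 over all genes. Of the 31 genes, 17 were below 1 in all 3 clusters and 0 above 1 in all 3.

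Slc2a1, Hk2 and Ldha were lower in each of the clusters. The ratio of Slc2a1 was 0.577 (0.445 to 0.742) in cluster 2, 0.562 (0.4204 to 0.747) in cluster 9 and 0.472 (0.265 to 0.886) in cluster 13. Ldha had 0.681, 0.664 and 0.614 in the same order, and Hk2 had 0.553, 0.462 and 0.436, with all 6 intervals below 1. Other genes varied more among the clusters. Egln3 was at 36.7 and 32.8 CPM (0.894, 0.639 to 1.23) in cluster 2, at 44.1 and 18.8 CPM (0.426, 0.276 to 0.643) in cluster 9 and at 37.7 and 12.3 CPM (0.327, 0.135 to 0.869) in cluster 13. Ndrg1 was at 73.4 and 48.3 CPM (0.658, 0.505 to 0.848) in cluster 2, and had 0.896 in cluster 9 and 1.24 in cluster 13, where both intervals span 1. Ldhb had 1.13 (0.951 to 1.33) in cluster 2 and 0.446 (0.244 to 0.859) in cluster 13, and Pfkl had 0.689 in cluster 2 and 1.14 (0.731 to 1.87) in cluster 13.

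**Figure D3:**
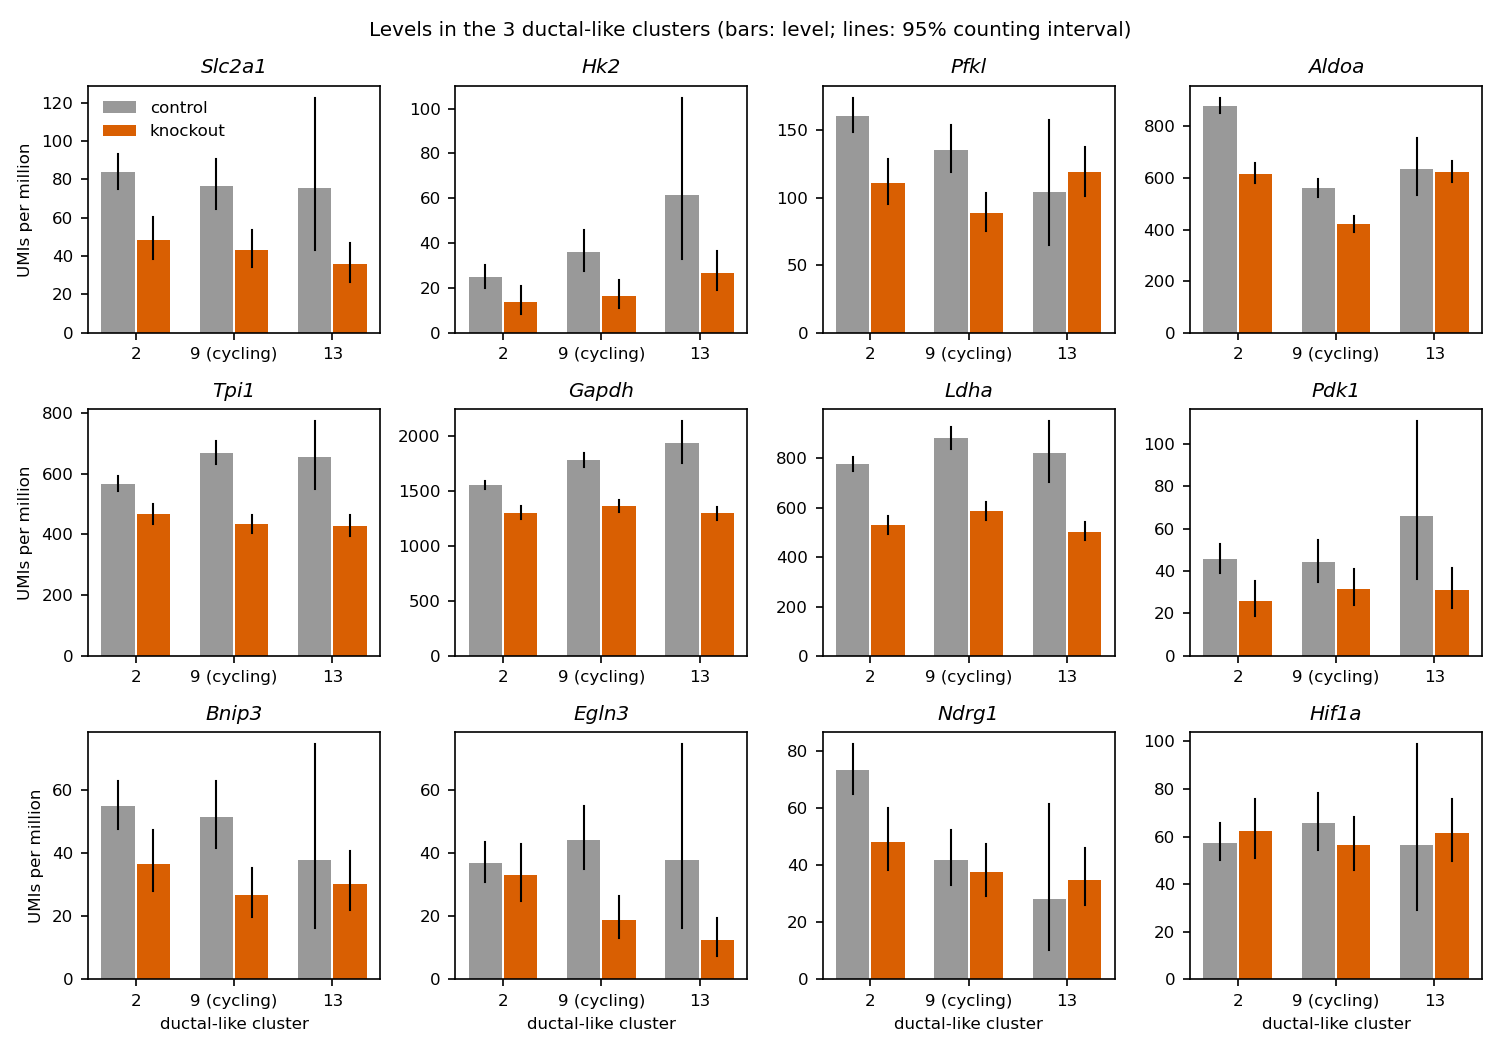
CPM of 12 genes in the control (grey) and knockout (orange) cells of each ductal-like cluster; bars are levels from 0 and lines 95% counting intervals. The knockout bars of Slc2a1, Hk2, Gapdh and Ldha are the lower ones in all 3 clusters, while the Hif1a intervals overlap in each.

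Other values of the ductal-like class also differed between the libraries, some lower and some higher in the knockout library. The summed level of 21 ductal markers was 23200 and 17100 CPM (ratio 0.737), with 0 of the 21 at 0 in either library. The 25 acinar markers summed to 2300 and 2080 CPM, and haemoglobin, which marks free red-cell RNA, to 5390 and 5880 CPM. The 18 beta-cell markers summed to 1130 and 645 CPM and the 17 mesothelial markers to 356 and 241 CPM. The 27 mesenchymal markers lay the other way, at 821 and 912 CPM. The 20 dissociation and immediate early genes summed to 10900 and 9590 CPM. Of these, 3 of 19 counted genes were called lower (3.81% of all genes) and 0 higher (3.69%), with a median log2 ratio of −0.36. S phase and mitosis genes summed to 2550 and 2720 CPM. Median depth was 9835 and 10308 UMIs per cell. The part of these values in the glycolytic differences was not tested.

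Of genes of the same pathways outside the list, hypoxia genes leaned lower in ductal-like cells and glycolysis genes did not. Of 35 other glycolysis genes 22 were counted, 11 below and 11 above 1. Their median log2 ratio was 0.01 (0.03 over all genes), with 1 called lower (3.81% of all genes) and 0 higher (3.69%). Pgm2, a phosphoglucomutase, was at 85.2 and 56.1 CPM (0.658, 0.565 to 0.764), and Bpgm, which makes bisphosphoglycerate, at 23.8 and 32.7 CPM (1.38, 1.09 to 1.74). Of 38 other hypoxia genes 29 were counted, with 6 called lower (3.81% of all genes), 2 higher (3.69%) and a median of −0.28. Trf, the iron carrier transferrin, was at 289 and 145 CPM (0.502, 0.459 to 0.549), and the transcriptional repressor Bhlhe40 at 61.1 and 30.9 CPM (0.506, 0.415 to 0.613). Arnt, the partner with which HIF-1α binds DNA, lay the other way, at 12.7 and 19.03 CPM (1.502, 1.095 to 2.07).

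In acinar-like cells, which make digestive enzymes, single steps of glycolysis were lower and 3 hypoxia genes higher, the latter at a share below that of all genes. Tpi1 was at 291 and 158 CPM (0.545, 0.481 to 0.6198), Hk2 at 50.9 and 24.6 CPM (0.483, 0.356 to 0.666) and Egln3 at 31.9 and 19.1 CPM (0.597, 0.409 to 0.897). Slc16a1 was at 11.98 and 4.92 CPM (0.4104, 0.215 to 0.848), from 12 and 49 UMIs. Pgk1, at 7.99 and 4.82 CPM, and Ldhb, at 7.99 and 5.32 CPM, also passed 1.5-fold, each from 8 control UMIs and with an interval that spans 1. Mif was at 1758 and 1177 CPM (0.6696, 0.637 to 0.704), just short of 1.5-fold and not called.

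The genes called higher were Ndrg1, at 99.8 and 165 CPM (1.65, 1.35 to 2.05), Bnip3l, at 62.9 and 97.3 CPM (1.55, 1.199 to 2.03), and Ankrd37, at 8.98 and 14.4 CPM (1.597, 0.818 to 3.56), whose interval spans 1. With cells thinned to 2000 UMIs Bnip3l had 1.07 (0.636 to 1.94). Gpi1 was at 109.8 and 155 CPM (1.41, 1.16 to 1.73) and Ldha at 577 and 495 CPM (0.857, 0.786 to 0.936). Hk2, Tpi1, Egln3 and Ldha were thus below 1 in acinar-like and ductal-like cells alike, and Ndrg1 lay on opposite sides.

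The acinar-like class differed in makeup between the libraries, which touches each of these values. Cluster 3 held 2 control and 396 knockout cells, cluster 5 held 90 and 270, and cluster 16 held 16 and 88. Without cluster 3, 0 of 21 counted genes were called lower (4.49% of all genes) and 1 higher (12.7%), which was Egln1. The ratio of Tpi1 was then 0.733, that of Hk2 0.754, that of Egln3 0.824, that of Bnip3l 1.25 and that of Ndrg1 1.29, so none of these 5 passed 1.5-fold. In cluster 5 alone 1 of 20, Bnip3, was lower (6.3%) and 0 higher (6.97%). In cluster 16, Hk2, Pfkl and Tpi1 were lower (3 of 16, 9.66%) and Gpi1, Bnip3l and Ndrg1 higher (3 of 16, 16.8%). The intervals of Gpi1 (0.9255 to 2.98) and Bnip3l (0.86 to 4.165) in cluster 16 span 1. Tpi1 was below 1 in both clusters, at 239.5 and 166 CPM (0.692, 0.578 to 0.8295) in cluster 5 and at 525 and 292 CPM (0.557, 0.442 to 0.707) in cluster 16. Mif was at 1685 and 1464 CPM (0.869, 0.814 to 0.927) in cluster 5 and at 2157 and 1537 CPM (0.713, 0.638 to 0.798) in cluster 16. Hk2 and Ndrg1 passed 1.5-fold in cluster 16 and not in cluster 5. Hk2 had 0.886 (0.596 to 1.34) in cluster 5 and 0.471 (0.251 to 0.948) in cluster 16, and Ndrg1 had 1.06 (0.831 to 1.37) and 2.42 (1.33 to 4.93). The 25 acinar markers of the class summed to 193000 and 111000 CPM and haemoglobin to 1160 and 3540 CPM, and median depth was 6223 and 11669.5 UMIs per cell. Their part in these differences was not tested.

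Within the knockout library alone, cluster 3 could be set against the other 358 acinar-like cells of the same capture. Ankrd37 was at 6.99 CPM in the others and 18.5 CPM in cluster 3 (ratio 2.64, 1.703 to 4.24), Gpi1 at 112 and 179 CPM (1.61, 1.43 to 1.803) and Ndrg1 at 132 and 184 CPM (1.399, 1.26 to 1.56). Hk2 was at 38.9 and 16.6 CPM (0.426, 0.328 to 0.553), Egln3 at 26.02 and 15.2 CPM (0.583, 0.434 to 0.784) and Tpi1 at 214 and 127 CPM (0.596, 0.539 to 0.658). Of 25 counted genes, 2 were called higher in cluster 3 (18.2% of all genes) and 3 lower (8.23%), and the median log2 ratio was −0.07, beside 0.16 over all genes. Cluster 3 was found on the same cells, though without these genes, and the values are a description.

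**Figure D4:**
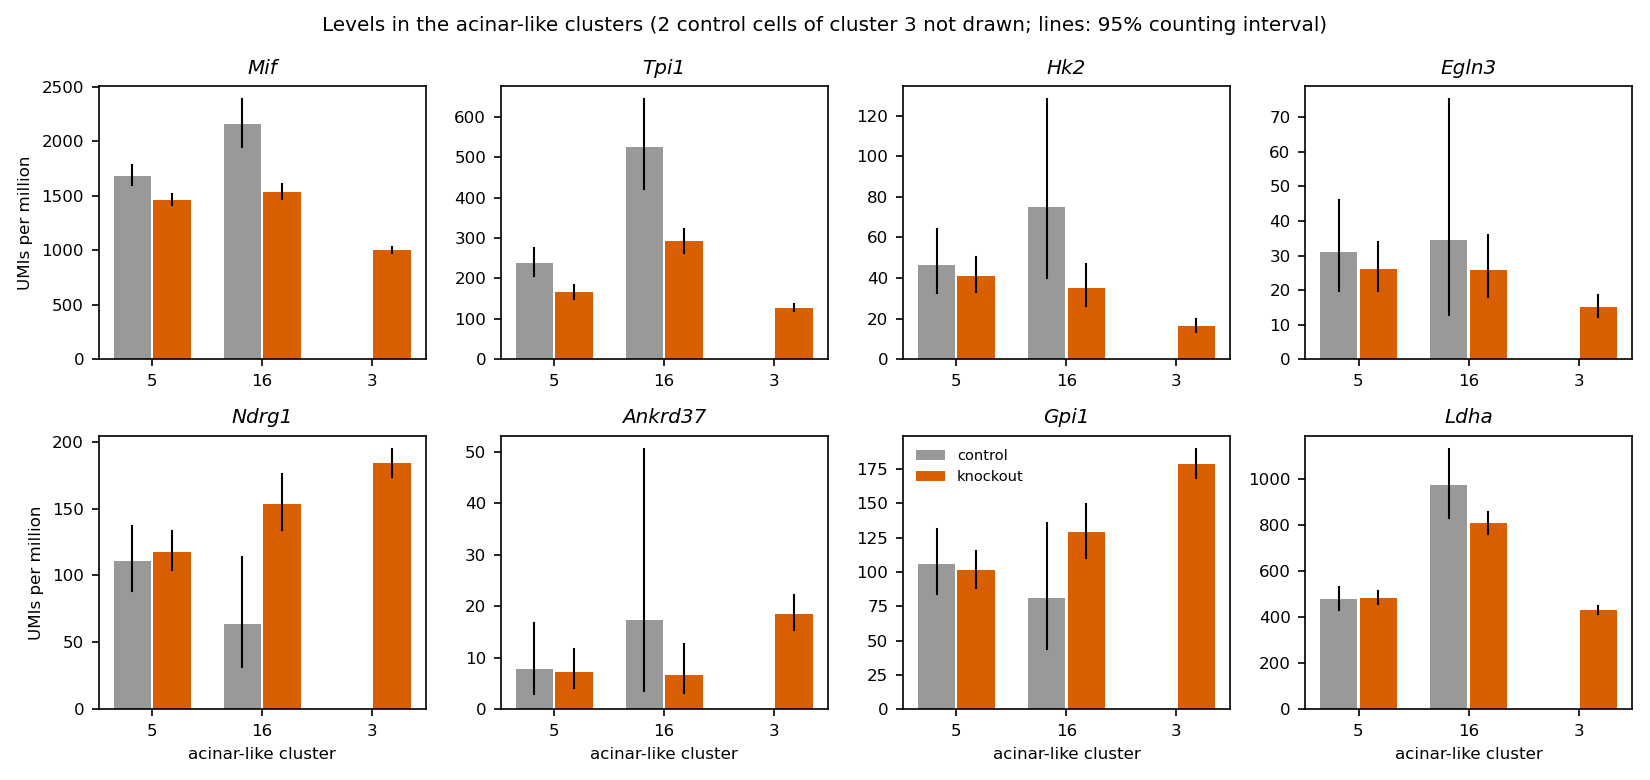
CPM of 8 genes in the acinar-like clusters, control in grey and knockout in orange, with 95% counting intervals as lines; the 2 control cells of cluster 3 are not drawn. The knockout bars of Tpi1 and Mif are lower than the control bars in clusters 5 and 16, and the knockout bars of Ndrg1 and Gpi1 are tallest in cluster 3.

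Of the other glycolysis genes in acinar-like cells 20 were counted, 4 higher (23.6% of all genes) and 2 lower (6.65%). Their median was 0.23, beside 0.19 over all genes. Pdhb, a subunit of pyruvate dehydrogenase, was at 28.95 and 49.2 CPM (1.698, 1.17 to 2.56), and the glycogen synthase Gys1 at 34.9 and 17.1 CPM (0.488, 0.338 to 0.724). Of the other hypoxia genes 29 were counted, 5 higher (23.6% of all genes) and 6 lower (6.65%), with a median of 0.07. Cited2, which competes with HIF for its coactivators, was at 21.96 and 62.7 CPM (2.86, 1.87 to 4.59), and the secreted glycoprotein Stc2 at 19.96 and 7.12 CPM (0.357, 0.215 to 0.619).

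In endocrine-like cells, which make hormones, the mitochondrial gene Bnip3l, Hif1a and 3 enzymes were called higher. Bnip3l was at 132 and 211 CPM (1.61, 1.42 to 1.82) and Hif1a at 41.99 and 66.6 CPM (1.59, 1.26 to 1.99). With cells thinned to 2000 UMIs Bnip3l had 1.15 (0.883 to 1.49), short of 1.5-fold. Pfkl was at 37.2 and 58.5 CPM (1.57, 1.23 to 2.001), Pdk1 at 17.9 and 27.6 CPM (1.54, 1.08 to 2.19) and Ldha, at the edge of 1.5-fold, at 47.5 and 71.3 CPM (1.501, 1.21 to 1.86). Slc2a1 was lower, at 11.7 and 5.23 CPM (0.447, 0.21 to 0.868), from 51 and 11 UMIs. Hormones take a large part of the UMIs of this class, and 18 beta-cell markers summed to 232000 and 98900 CPM. With the class total taken without secreted, haemoglobin and mitochondrial genes, the median of all genes moved from 0.24 to 0.02 and the number called higher from 5 to 0 (7.17% of all genes); in acinar-like cells the same total moved the median of all genes from 0.19 to 0.07 and the number called higher from 3 to 1 (19.0%).

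The 4 endocrine-like clusters differed in their levels and directions. Ldha was at 235 and 180.3 CPM (0.768, 0.585 to 1.01) in progenitor-like and at 188 and 52.9 CPM (0.282, 0.123 to 0.572) in delta-like cells. It was at 9.39 and 17.1 CPM (1.83, 0.881 to 3.63) in beta-like and at 11.4 and 33.6 CPM (2.95, 1.25 to 7.52) in alpha-like cells, the last from 9 and 17 UMIs. Beta-like and alpha-like cells were thus far below the other clusters in the control library, and the direction was not shared. With each cluster given the same weight in both libraries the ratio was 0.826, on the other side of 1 from the class value. The class held 53 progenitor-like cells of 371 in the control and 69 of 233 in the knockout library.

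Lactate genes were at very low levels in beta-like cells of both libraries. Slc16a1 had 0 UMIs, which allows up to 1.08 CPM in the control and 3.67 CPM in the knockout library at 3 counts. The Ldha level of beta-like cells was 1.16% of the ductal-like level in the control and 3.16% in the knockout library. As a guide to free RNA, 4 of the 21 ductal markers were picked, and the others were not read in single clusters. In beta-like cells Spp1 stood at 0.91% and 0.53% of its ductal-like level, Clu at 1.36% and 1.35%, and Krt19 at 4.96% and 4.85%. Krt7 lay the other way, at 148% and 142%. Over the whole endocrine-like class the 21 markers summed to 3300 and 3710 CPM, against 23200 and 17100 CPM in ductal-like cells. Ldha in beta-like cells thus lay between Spp1 and Clu in the control, and between Clu and Krt19 in the knockout library, where it rested on 14 UMIs and Krt19 on 7. The part of free RNA in it was not tested. In alpha-like cells Krt7 stood at 131% and 139% of its ductal-like level. Ldha there was at 1.4% of the ductal-like level in the control, where Spp1 was at 0.653%, Clu at 1.08% and Krt19 at 0.914%. In the knockout library it was at 6.19%, where Spp1 was at 0.443%, Clu at 0.905% and Krt19 had 0 UMIs. Other enzymes were not depleted in this way. Gapdh in beta-like cells was at 31.3% and 33.2% of the ductal-like level and Aldoa at 28.8% and 35.7%, and Pkm was at 332 and 311 CPM in beta-like and 331 and 337 CPM in ductal-like cells.

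In beta-like cells 7 of 19 counted genes were higher (21.1% of all genes) and 0 lower (4.31%), and 8 of the 19 were below 1. The median log2 ratio of the 19 was 0.09, below the 0.26 of all genes. Median depth of these cells was 13925 UMIs in the control and 7900 in the knockout library. Hif1a was at 32.1 and 58.8 CPM (1.83, 1.26 to 2.63), Bnip3l at 94.2 and 152 CPM (1.61, 1.29 to 2.002) and P4ha1 at 13.4 and 34.3 CPM (2.57, 1.51 to 4.31). Pfkl, Pdk1, Egln1 and Ndrg1 were the others, and the interval of Pdk1 spans 1 (0.8765 to 2.57). In alpha-like cells Pfkl, Pkm and Ankrd37 were higher (3 of 15, 12.5%) and Higd1a lower (6.88%), with Pkm at 254 and 385 CPM (1.52, 1.24 to 1.86). The intervals of Pfkl (0.961 to 2.71) and Ankrd37 (0.894 to 2.56) there span 1. In progenitor-like cells Hif1a was higher (1 of 16, 5.99%), at 41.95 and 73.8 CPM (1.76, 1.02 to 3.14), and Gpi1, Aldoc and Ndrg1 lower (3 of 16, 6.54%). Calls rest on the ratio alone, and the intervals of some, such as Aldoc in these cells (0.429 to 1.008), span 1. In delta-like cells, of which there were 37 and 21, 0 of 11 were higher (4.51%) and 5 lower (19.3%), namely Aldoc, Eno1, Ldha, Bnip3l and Mif. Bnip3l there was at 231 and 135 CPM (0.584, 0.349 to 0.944), opposite in direction to beta-like cells. The medians in alpha-like, progenitor-like and delta-like cells were 0.09, −0.21 and −0.50, beside 0.11, −0.01 and −0.17 over all genes.

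**Figure D5:**
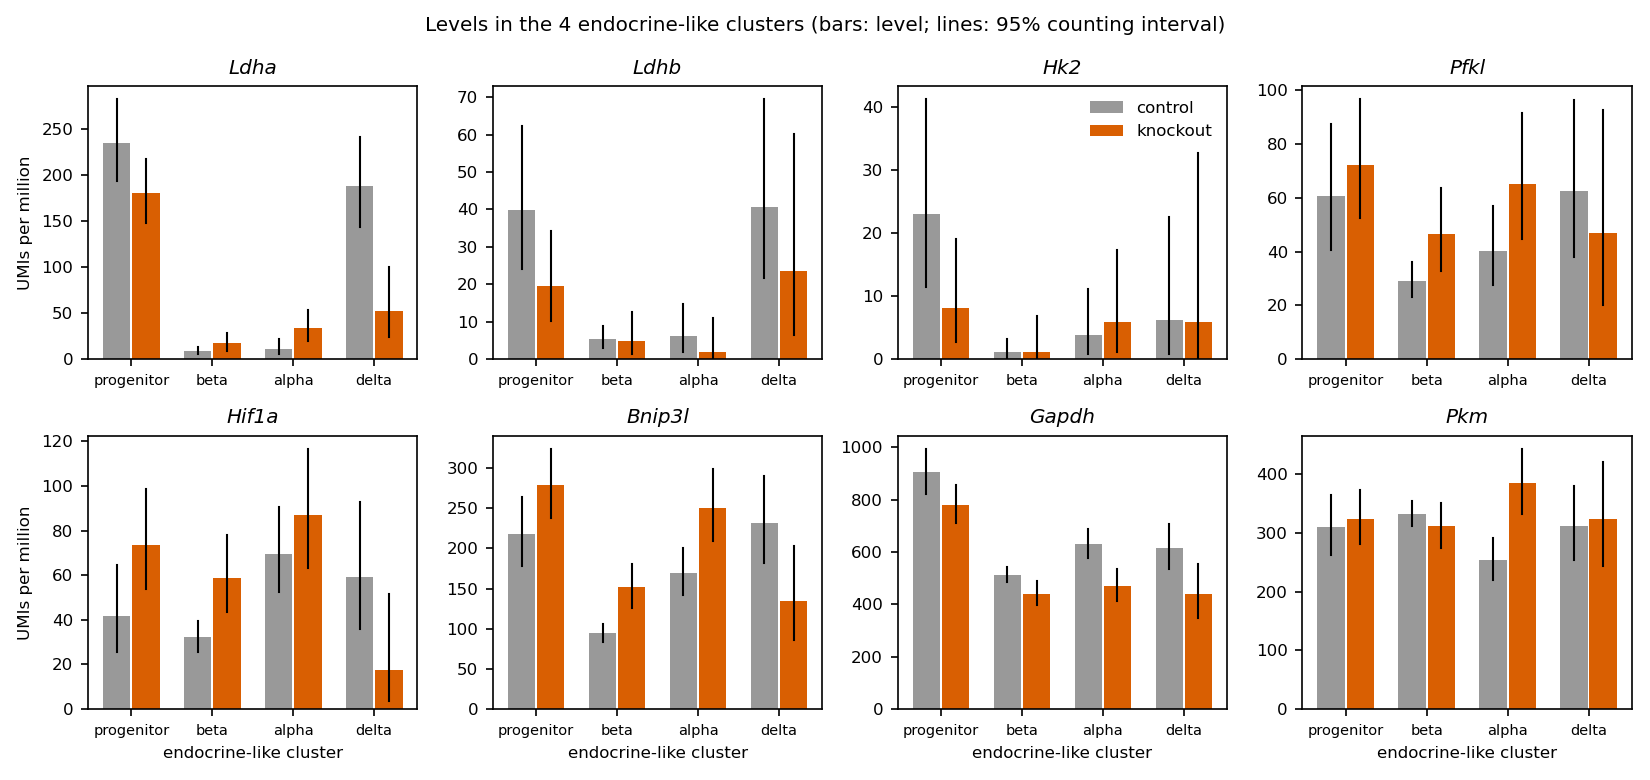
CPM of 8 genes in the 4 endocrine-like clusters, control in grey and knockout in orange, with 95% counting intervals as lines. Ldha is at most 33.6 CPM in the beta-like and alpha-like bars and reaches 235 CPM in control progenitor-like cells, whereas Pkm lies between 254 and 385 CPM in every cluster.

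Acinar markers in endocrine-like cells summed to 454 and 1420 CPM with 4 and 3 of the 25 at 0, mesenchymal markers to 754 and 1290 CPM with 1 and 0 of the 27 at 0, and haemoglobin to 7070 and 9360 CPM. Their part in these values was not tested. Of the other glycolysis genes 18 were counted, 4 higher (17.5% of all genes) and 1 lower (4.39%). Their median was 0.31, beside 0.24 over all genes. Pdk3, an X-linked pyruvate dehydrogenase kinase, was at 10.6 and 22.8 CPM (2.16, 1.41 to 3.31), and Slc2a2, the main beta-cell glucose transporter of mice, at 147 and 39.9 CPM (0.272, 0.214 to 0.342). Of the other hypoxia genes 20 were counted, 5 higher (17.5% of all genes) and 2 lower (4.39%), with a median of 0.40. Egln2, the remaining HIF prolyl hydroxylase, was at 53.9 and 82.7 CPM (1.53, 1.25 to 1.87), and Mxi1, a HIF target that opposes Myc, at 11.01 and 19.97 CPM (1.81, 1.17 to 2.802).

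Outside the epithelium few genes were called. In mesenchymal-like cells these were Adm, at 12.5 and 4.13 CPM (0.331, 0.209 to 0.514), and Slc16a3, at 28.1 and 15.4 CPM (0.549, 0.427 to 0.703). Hk2 was at 109.7 and 76.3 CPM (0.695, 0.619 to 0.781), Egln1 at 26.3 and 18.04 CPM (0.685, 0.538 to 0.872) and Bnip3 at 33.2 and 23.7 CPM (0.714, 0.577 to 0.882). Ldhb lay the other way, at 30.2 and 45.2 CPM (1.495, 1.24 to 1.81), just short of 1.5-fold. Gapdh, Tpi1 and P4ha2 had ratios near 1, with intervals of 0.981 to 1.07, 0.943 to 1.06 and 0.934 to 1.15.

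In endothelial-like cells the called genes were Slc16a3, at 24.3 and 12.7 CPM (0.523, 0.257 to 0.998), and Slc2a1, at 54 and 35.2 CPM (0.651, 0.429 to 0.969). Ankrd37 was at 129 and 169 CPM (1.31, 1.06 to 1.61). Adm had 15 UMIs, or 9.10 CPM, in the control and 0 in the knockout library, which makes it at least 3.11-fold lower against a floor of 3 counts in that library. Haemoglobin was at 2330 and 7250 CPM in endothelial-like and at 9710 and 17000 CPM in mesenchymal-like cells.

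Mesothelial-like cells had 3 of 27 genes called lower (6.3% of all genes) and 0 higher (4.18%). Slc16a1 had 161 and 93 UMIs (ratio 0.648, 0.497 to 0.842), Aldoc was at 41.6 and 25.1 CPM (0.603, 0.391 to 0.918) and Ankrd37 at 28.6 and 17.4 CPM (0.6101, 0.359 to 1.01). Macrophage-like cells had 2 of 16 lower (7.04%) and 0 higher (5.89%), Hk2 at 197 and 91.8 CPM (0.467, 0.333 to 0.6503) and Eno1 at 306 and 189.9 CPM (0.621, 0.486 to 0.792). Pericyte or smooth muscle-like cells had 1 of 13 lower (6.06%) and 0 higher (6.38%), Hif1a at 89.6 and 45.5 CPM (0.507, 0.247 to 0.961), from 53 and 12 UMIs.

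Across the 8 classes some genes kept a direction. Bnip3 was below 1 in all 7 classes in which it was counted, with ratios from 0.582 to 0.943, and Hk2 in all 5 (0.467 to 0.739). The lactate carriers Slc16a1 and Slc16a3 were each below 1 in all 4 of their classes, from 0.410 to 0.784 and from 0.523 to 0.846. Slc2a1 was below 1 in 5 of 6, with acinar-like cells at 1.02. Bnip3l was above 1 in 6 of 8 classes, up to 1.61. Ldha (below 1 in 5 of 8) and Hif1a (4 of 8) had no common direction. With ratios centred on the median of all genes of a class, Slc2a1 and Hif1a in acinar-like cells and Hif1a in ductal-like cells changed sides, while the other directions of these 8 genes held. Some of the intervals behind these directions span 1, such as that of Bnip3 in macrophage-like cells (0.531 to 1.125) and that of Slc16a1 in ductal-like cells. The share of all genes that kept a direction over as many classes was not computed. The classes of a library share its capture and its embryo, so they are not replicates, and a difference common to them cannot be told apart from one between the libraries.

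Some of the 35 genes were among the cluster genes that the submitters listed. The authors' deposited table lists 1252 genes over 14 clusters, 4.47% of the genes of the count tables, and holds 7 of the 35. In the authors' deposited table Aldoc is a gene of cluster 0 (adjusted p = 1.43e-137), whose leading genes include Krt18 and Spp1, and of cluster 3 (adjusted p = 3.10e-138), led by Mcm6 and Pcna. The authors' deposited table places Eno1, Gapdh, Ldha and Hk2 together in cluster 12, led by the mitosis genes Cenpf and Prc1, with adjusted p-values from 7.05e-86 to 4.67e-16. Hk2 is also in cluster 3, Ndrg1 in cluster 2 and Mif in cluster 8 of the authors' deposited table. These p-values were computed by the authors across cells and compare clusters, not libraries.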

How the data were processed

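Per the labels' protocols, both pancreata were digested for 20 min and loaded for a target of 10000 cells. The control cells were resuspended in 500 µL and the knockout cells in 250 µL, a difference that cannot be told apart from genotype. The authors deposited whole-number UMI counts for every gene and barcode, made with Cell Ranger (3.0.0 per the file headers); the submitters' processing notes name GRCm38, mm10 and Seurat 2 and 3. Each p-value in the authors' deposited table was computed by the authors, and the test behind it is not stated in the labels.

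Left out were barcodes with fewer than 500 genes (1290 in the control, 1465 in the knockout library) or with more than 10% mitochondrial UMIs (63 and 57), and 26 and 29 Scrublet doublets. Log values per 10000 UMIs of 2000 variable genes, without the 35 genes, their related lists, secreted, haemoglobin, mitochondrial, ribosomal and sex genes, gave 30 components, 15 neighbours and 24 Leiden clusters at resolution 1. A cluster was named from at least 3 markers of a class among its 50 leading genes, or 200 for 2 cycling clusters, a number chosen after seeing the data. Unnamed clusters held 74 and 125 cells. UMIs were summed per class and library. By the naming rule any of the 35 genes may be named, those past 1.5-fold with at least 50 UMIs are, and so may be the 2 highest and 2 lowest of each related list. The 35 genes, the lists, the markers and 9 alternatives were chosen with earlier results of these data known; 5 alternatives were added after seeing the data. Genes singled out within clusters were chosen after their values were seen. The calculation was tested on simulated counts. Clustering used scanpy 1.11.5 with leidenalg 0.10.2 and igraph 0.11.9 under Python 3.11.15, intervals SciPy 1.17.1 with NumPy 2.4.6 and pandas 2.3.3, and plots matplotlib 3.10.9.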

Additional observations from a re-analysis of the deposited data

Results flagged for a closer look

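For 3 genes the ratio of knockout to control lay at least 1.5-fold from 1 in opposite directions in a pair of classes, with both counting intervals clear of 1. Ankrd37 also passed 1.5-fold both ways, at 1.597 in acinar-like and 0.610 in mesothelial-like cells, but both of its intervals span 1. Pdk1 was 1.54 in endocrine-like and 0.642 in ductal-like cells, so the ratios differ 2.4-fold. Ndrg1 was 1.65 in acinar-like and 0.651 in ductal-like cells, a 2.54-fold difference of the ratios. Hif1a was 1.59 in endocrine-like and 0.507 in pericyte or smooth muscle-like cells, a 3.12-fold difference, with 12 UMIs in the latter class of the knockout library. With ratios centred on the median of all genes, no gene was called higher in endocrine-like or acinar-like cells, so none of the 3 pairs kept both calls. Ndrg1 in acinar-like cells also fell short of 1.5-fold without cluster 3, which held 2 control and 396 knockout cells. In cluster 13 of the ductal-like cells Ndrg1 was 1.235. None of these differences was tested, because each class has 1 library per group.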

How the results depend on the processing

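No paired analysis was possible because each group has 1 library. In ductal-like cells the number of genes called lower was 2 at a fold of 2, and 7, 7 and 6 within the clusters; the median of −0.44 was −0.26 in cluster 2, −0.30 in cluster 13 and −0.35 with each cluster given the same weight in both libraries (clusters weighted alike). Slc2a1 there had 0.715 (0.473 to 1.07) with every cell thinned to 2000 UMIs and 0.509 with each cell weighted alike. Ndrg1 reversed to 1.235 in cluster 13. In acinar-like cells the median of −0.27 was −0.01 after thinning and reversed to 0.08 with each cell weighted alike. The 3 genes called higher there were 1 under the total without secreted, haemoglobin and mitochondrial genes, 0 when centred on all genes, 0 at a fold of 2, 1 without the cluster held by 1 library and 0 in cluster 5; the 6 called lower were 10 when centred, 2 at a fold of 2, 3 after thinning, 0 without that cluster, 1 in cluster 5 and 3 in cluster 16. In endocrine-like cells the 5 called higher were 0 under the other total, when centred, at a fold of 2 and in cluster 17, 2 after thinning and with each cell weighted alike, 3 in cluster 11, and 1 in cluster 15 and with the clusters weighted alike. The 1 called lower was 0 after thinning and in cluster 7, 3 in cluster 15 and with the clusters weighted alike, and 5 in cluster 17, where the median was −0.50. Ldha reversed to 0.768 in cluster 15, 0.282 in cluster 17 and 0.826 with the clusters weighted alike, and Bnip3l to 0.584 in cluster 17. In mesenchymal-like cells 1 gene was called higher under the other total, when centred, with no minimum of UMIs and with clusters or cells weighted alike, and 1 lower at a fold of 2. In endothelial-like cells 1 was lower with doublets kept, 6 with no minimum and 0 at a fold of 2. A fold of 2 and a missing minimum change the counts by construction. Thinning, a single cluster or a left-out cluster also puts genes under 50 UMIs, where they cannot be called. Slc2a1 in endocrine-like cells, for instance, had 27 and 4 UMIs in cluster 7, at a ratio of 0.502. The cause of the other changes was not tested. For summed results, 108 values under the 9 alternatives listed first stayed within 1.5 times or the counting interval and 22 moved. Under the alternatives added after seeing the data, 35 summed values stayed, 18 moved and 1 reversed. Depth limits Slc2a3, Hk1, Eno2, Adm and Pfkp, which reached 50 UMIs in at most 2 classes.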

Other observations

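Barcodes left out for having under 500 detected genes were in large part red cells. Haemoglobin made up more than 50% of the UMIs in 838 such barcodes of the control and 1136 of the knockout library, and 96.4% and 96.0% of all their UMIs. Of the 35 genes, Bnip3l, which removes mitochondria from maturing red cells, held most of the UMIs, with 1030 of 1222 UMIs in the control and 1449 of 1719 in the knockout library. Its level was 10050 per 1000000 UMIs outside haemoglobin in the control (9444 to 10680) and 9074 in the knockout library (8613 to 9553). Gapdh stood at 624 and 413 on the same scale.

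Red-cell RNA carried 0.377 Bnip3l UMIs per 1000 haemoglobin UMIs in the control and 0.379 in the knockout library. At the haemoglobin level of each class, free red-cell RNA in that ratio would bring between 0.215 and 7.80 CPM of Bnip3l. With this taken off, the Bnip3l ratio was 1.54 in acinar-like, 1.61 in endocrine-like, 1.19 in mesenchymal-like, 1.17 in mesothelial-like, 1.47 in macrophage-like, 1.13 in pericyte or smooth muscle-like, 0.93 in ductal-like and 0.948 in endothelial-like cells. The calculation takes all haemoglobin of a class to carry the ratio of the left-out barcodes. With cells thinned, as given above, Bnip3l fell short of 1.5-fold in acinar-like and endocrine-like cells. The part of free RNA in the Bnip3l ratios was not tested.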
